A study of Mus musculus with 15 samples.

Results

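The response of LPS-treated macrophages to plasma extracellular vesicles (EVs) from mice 3 days after 2 Gy of whole-body ionizing radiation (WBIR) was compared with the response to EVs from sham mice. The comparison rests on the 3 samples titled for 2 Gy at day 3 and the 3 sham samples, out of 15 samples in the series, and on the 282 of 561 panel genes with a mean of at least 20 raw counts over these 6 samples. The donor mice were female C57BL/6J mice of 6 to 8 weeks, and sham donors were uninjured. The recipient cells of every sample were RAW 264.7, an established mouse macrophage line, kept for 24 h with EVs and lipopolysaccharide (LPS) from Escherichia coli. No sample without LPS or without EVs was analysed here, so the values describe a difference between LPS-treated cultures and not the LPS response itself. The other 9 samples received EVs from mice at day 7 after 2 Gy, or at day 3 or day 7 after 9 Gy, and entered only the shared estimate of spread and, for 2 Gy day 7, a comparison of days. The study states that samples for this assay were run in triplicate. The sources used here do not say whether the 3 samples of a group came from separate cultures or separate donor mice, so p-values measure the spread between these samples, which may be technical. Sources also differ on the number of EVs given and on the lysis reagent, and for 9 Gy day 3 the title and the day label (7) of replicates 1 and 2 conflict.

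LPS binds Toll-like receptor 4 (TLR4) with the help of CD14 and MD-2, and adaptors such as MyD88 and the IRAK kinases pass the signal to the IκB kinases. These mark the IκB proteins for degradation, which frees NF-κB to induce cytokines, chemokines and its own inhibitors, among them Nfkbia. A separate branch from TLR4 induces interferon β, which acts back on the macrophage through its receptor, the JAK kinases and STAT factors. EVs carry protein and RNA of the cells that shed them and can be taken up by macrophages.

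Values are nanoString nCounter counts, in which color-coded probes on each mRNA are counted without amplification. Each sample was divided by a factor made from the geometric mean of 14 housekeeping genes in it, and the resulting values are called normalized counts. Raw counts summed to 568097 to 729491 per sham sample and 583646 to 837995 per 2 Gy day 3 sample, and between 1.77% and 7.09% of the values of tested genes were under 20. The 9 Gy day 3 samples, which enter the estimate of spread, had 43176 to 87899 counts and 38.7% to 53.2% of tested values under 20. Fits without both 9 Gy groups gave 19 genes at unadjusted p under 0.05, or 14 with only the 6 samples compared, and 0 after adjustment, where the fit over all samples gave 7 and 0. The recipient line was checked against markers. All 7 macrophage markers on the panel passed the filter, with summed normalized counts of 6114 to 9897 with sham EVs and 6718 to 8615 with 2 Gy day 3 EVs. Of 26 markers of T, B and NK cells, platelets and granulocytes, 21 had a mean under 20 raw counts, including Cd3e and both platelet markers. The others, in raw counts over the 6 samples, were Cd8a (82 to 175), Lck (37 to 52), Ms4a1 (23 to 34), Blnk (96 to 183) and S100a8 (17 to 34). The macrophage marker Csf1r had 20 to 50.

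Samples did not group by EV type. The median absolute log2 difference over the 282 genes was smallest between 2 Gy day 3 replicates 2 and 3, at 0.11. Replicate 1 of that group lay nearer to sham replicate 3 (0.19) than to its own replicates 2 and 3 (0.26 and 0.29). Sham replicate 2 lay nearer to 2 Gy day 3 replicates 2 and 3 (0.18 and 0.16) than to the other sham samples (0.29 and 0.34). No pair was as close as sampling noise allows, the closest having a chi-square of 2.00 per degree of freedom.

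**Figure D1:**
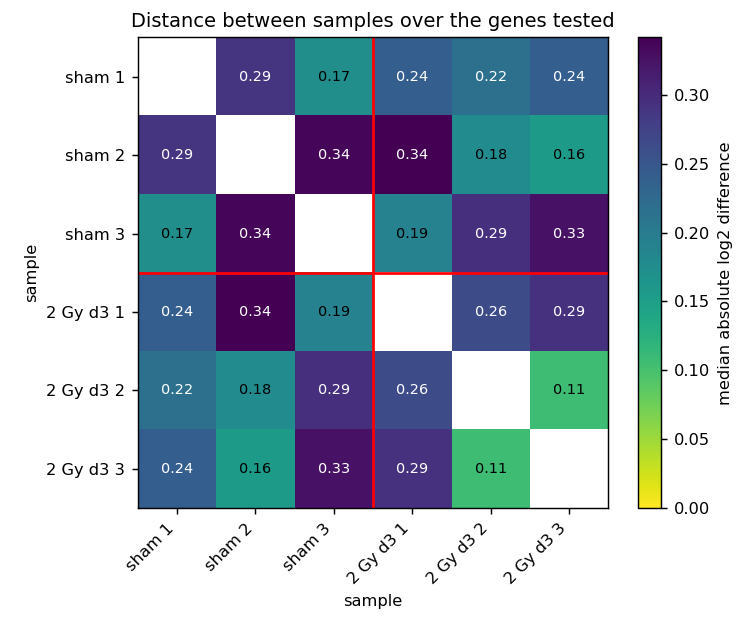
Median absolute log2 difference of normalized counts over the 282 genes tested, for each pair of the 6 samples, with red lines between the groups. The darkest cells, at 0.34, pair sham replicate 2 with sham replicate 3 and with 2 Gy day 3 replicate 1, and the 2 groups do not form 2 blocks.

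Immune genes with a wide spread among the sham samples followed this pattern. Il27, a cytokine subunit of the IL-12 family, was counted at 3011, 6408 and 2027 in sham replicates 1 to 3 and at 1905, 4318 and 4780.2 in 2 Gy day 3 replicates 1 to 3. Cd40, a costimulatory receptor, had normalized counts of 542, 865 and 335 with sham EVs against 212, 512 and 609. In both, sham replicate 2 was highest, and 2 Gy day 3 replicate 1 and sham replicate 3 were lowest. Irf1, an interferon-induced transcription factor, was also highest in sham replicate 2, with 98.7, 372 and 149.8 against 135, 248 and 246. Socs3, an inhibitor of cytokine receptor signaling, was lowest in sham replicate 2 and in 2 Gy day 3 replicates 2 and 3, at 182, 56.7 and 252 with sham EVs and 140.5, 56.01 and 60.6 with 2 Gy day 3 EVs. Its estimated log2 fold change of −0.95 ± 0.65 (SE) was the lowest of all genes tested, yet the groups overlapped. The choice of these 4 genes followed their values, from the 8 genes with the widest relative spread among sham samples. The median coefficient of variation was 15.7% across sham samples and 12.9% across 2 Gy day 3 samples.

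No gene passed the test between 2 Gy day 3 and sham EVs once p-values were adjusted. After Benjamini-Hochberg adjustment of the quasi-likelihood p-values from edgeR, 0 of 282 genes (0%) passed 0.05, and the smallest adjusted p was 0.519. Before adjustment, 5 genes (1.77%) were lower and 2 (0.709%) were higher at p under 0.05. Nfkbia, Ifngr1, Cd80, Nfkbiz and Ski made up the former, with H2-Ob and Lta on the upper side. DESeq2 also gave 0 genes after adjustment and 12 before it, and limma gave 0 and 6. The unadjusted calls are therefore given as descriptions. The estimates were small. The log2 fold changes ran from −0.95 to 0.83 with a median of −0.04 and quartiles of −0.22 and 0.07, and 268 genes lay within 0.5 of 0. For 239 genes (84.8%) the 95% interval of the fold change lay wholly within a 2-fold change in either direction, and the median width on each side of the estimate was 0.48 log2 units.

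All 3 samples given 2 Gy day 3 EVs lay below all 3 sham samples for 21 genes (7.45%) and above them for 13 (4.61%). An exact permutation test of 3 samples against 3 cannot give a two-sided p below 0.1, so this separation is a description. With labels assigned at random, a share of 0.1 of genes would be expected to separate, and 12.1% did. The split depended on the scale: TMM scaling gave 36 such genes with 10 lower, median-of-ratios scaling gave 37 with 10 lower, and scaling to total counts gave 36 with 26 lower. Of the 34 genes, 16 were separated in the same direction under all 5 scalings tried. The 8 lower ones were Cd274, Ifngr1, Il13ra1, Il17ra, Irak2, Itgb2, Nfkbia and Nfkbiz, and the 8 higher ones were Ccl12, Ccl3, Cxcl10, H2-Ob, Irak3, Lta, Trp53 and Tyk2. The unadjusted calls split likewise, with 11 genes under TMM scaling of which 3 were lower and 15 under total counts of which 12 were lower. Leaving out sham replicate 2 raised the unadjusted count from 7 to 23 and the separated genes from 34 to 101. Without 2 Gy day 3 replicate 1 these counts were 13 and 68, without sham replicate 3 they were 6 and 56, and without 2 Gy day 3 replicate 2 they were 3 and 44. Fewer samples must separate when 1 is left out, so the numbers of separated genes after such a removal cannot be set directly against 34. The adjusted count was 0 in each case.

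**Figure D2:**
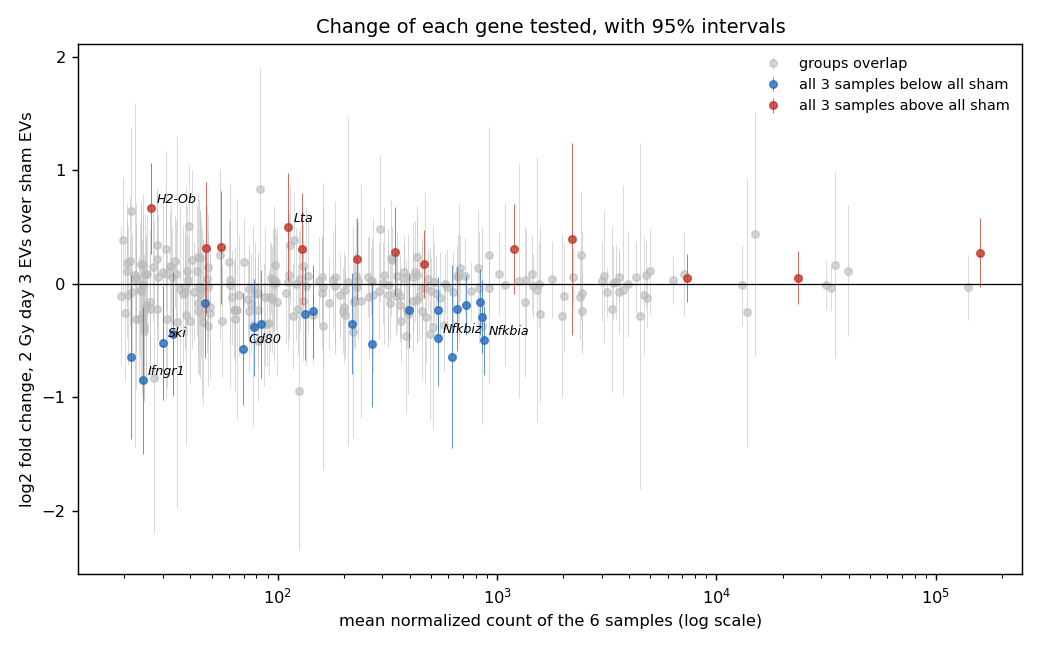
Log2 fold change of each of the 282 genes (2 Gy day 3 EVs over sham EVs, y axis) against its mean normalized count over the 6 samples (x axis, log scale), with 95% intervals from edgeR and the 7 genes at unadjusted p under 0.05 named. Blue points (21) lie below and red points (13) above all sham samples, and most intervals span 0.

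Of genes with a mean of at least 100 raw counts, the 2 that were lower at unadjusted p under 0.05 were Nfkbia and Nfkbiz. Both encode IκB proteins. With that mean as the filter, 3 of 167 genes reached that p in edgeR, 2 of them lower. The pair depended on the scale, since Nfkbiz did not reach that p under TMM or median-of-ratios scaling. Itgb2, Tollip, Cd274, Ptpn6 and Ctnnb1 also reached it under total counts. The pair also depended on samples. Nfkbiz lost that p without sham replicate 3 or without any 1 of the 2 Gy day 3 replicates. With only the 6 samples compared, Itgb2 and Fcgr2b also reached it. Nfkbia, which encodes IκBα and holds NF-κB in the cytoplasm, had normalized counts of 1085, 819.8 and 1149 in the sham replicates and 742, 706 and 712 after 2 Gy day 3 EVs. All 3 treated samples lay below the lowest sham sample and spread over a far narrower range. The means were 1018 ± 174 and 720.1 ± 19.03 (SD, n = 3 each). In edgeR's quasi-likelihood test the log2 fold change was −0.50 ± 0.14 (SE, 95% interval −0.81 to −0.19), with an unadjusted p of 0.0037 and a Benjamini-Hochberg adjusted p of 0.519. Over 23 alternative settings its adjusted p ranged from 0.111 to 1.00, and its estimate from −0.63 to −0.40. Counts in bulk RNA cannot tell fewer expressing cells from less RNA per cell. Nfkbiz, a nuclear IκB protein that NF-κB induces and that tunes secondary response genes such as Il6, stood at 521, 576 and 772 against 434, 455 and 453. These groups did not overlap either, with sham replicate 3 the highest sample, and the log2 fold change was −0.48 ± 0.20 (SE, edgeR unadjusted p = 0.028, adjusted p = 0.997). That estimate ran from −0.59 to −0.29 when single samples were left out.

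The promoter of Nfkbia is shown because this gene had the lowest unadjusted p among genes with a mean over 100 raw counts and is a textbook NF-κB target. The 250 bases before the annotated start are printed from RefSeq (GRCm38.p6, chr12:55492648-55492897, minus strand), with the match to the NF-κB motif GGGANNNTCC, on either strand, in capitals.
Nfkbia: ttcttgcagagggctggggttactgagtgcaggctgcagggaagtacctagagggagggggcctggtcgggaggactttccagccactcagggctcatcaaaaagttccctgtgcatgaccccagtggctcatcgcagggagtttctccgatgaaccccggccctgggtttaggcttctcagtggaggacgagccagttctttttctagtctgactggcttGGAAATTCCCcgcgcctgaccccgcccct
The match starts 29 bases before the annotated start. Of 32851 promoter windows of this length, 3.86% held the motif. Among 13 genes, made up of Irak3, those the study names for this comparison and those at unadjusted p under 0.05, 11 had a window, and that of Nfkbia was the one with a match. Nfkbiz and Itgb2 had no window and were not searched. Since Nfkbia was picked partly as a known NF-κB target, its match says nothing about these samples. A match of letters is a description and not a binding site.

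The other NF-κB genes had groups that overlapped. Of the 15 subunits, inhibitors and kinases tested, 2 were lower at unadjusted p under 0.05 (1.77% over all genes), and 13 estimates were below 0, with a median log2 fold change of −0.14 against −0.04 over all genes. Under TMM scaling 8 were below 0 and under total counts all 15 were. Without 2 Gy day 3 replicate 1 the median was −0.0039 and without sham replicate 2 it was −0.04, with 9 estimates below 0 in each. Tnfaip3 (A20), a deubiquitinase that ends NF-κB signaling, was counted at 159.7, 188 and 198 with sham EVs and 166, 155 and 165 with 2 Gy day 3 EVs, with 2 treated samples above sham replicate 1. Bcl3, another nuclear IκB protein, had 115, 86.9 and 104 against 78.7, 89.5 and 72.5, and its groups overlapped through sham replicate 2 and treated replicate 2. Among the subunits, the log2 fold change was −0.02 ± 0.18 (SE) for Rela, 0.06 ± 0.22 for Nfkb1 and −0.07 ± 0.17 for Nfkb2, the sign of Nfkb2 changing with TMM scaling. The kinase genes Chuk and Ikbkb had −0.14 ± 0.16 and −0.04 ± 0.18.

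Of 14 TLR genes and adaptors, 2 were separated downward and 1 upward, where 7.45% and 4.61% of all genes were. Tollip, an adaptor that restrains IRAK1, was counted at 996, 809 and 999.6 with sham EVs and 762, 776 and 757 after 2 Gy day 3 EVs. The treated samples lay close together, and sham replicate 2 was the sham sample closest to them. Irak2, a kinase that sustains signaling from TLRs, stood at 724, 769.7 and 821 against 638, 701 and 692. Irak3 (IRAK-M), which lacks kinase activity and dampens TLR signaling in macrophages, was the one separated upward, at 193, 228 and 214 against 248, 247 and 244. The log2 fold changes were −0.29 ± 0.15 (SE) for Tollip, −0.19 ± 0.12 for Irak2 and 0.22 ± 0.17 for Irak3, with edgeR unadjusted p-values of 0.076, 0.148 and 0.216 and an adjusted p of 0.997 for each. Tollip overlapped under median-of-ratios scaling. Tlr4 itself had counts of 36.6, 29.3 and 49.9 against 38.2, 41.8 and 38.5, and Myd88 64.3, 85.9 and 57.3 against 53.95, 68.6 and 70.6. Neither pair of groups separated. The list median was −0.07, and 0.01 under TMM scaling and −0.00097 without sham replicate 3. Cd14, the LPS co-receptor, was counted at 3691, 2303 and 4828 against 4147, 2623 and 2516, following the split of samples described above. Traf6, a ubiquitin ligase downstream of the IRAK kinases, was at 2 raw counts in treated replicate 3, and its estimate of −0.83 ± 0.64 had the widest error of this list.

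**Figure D3:**
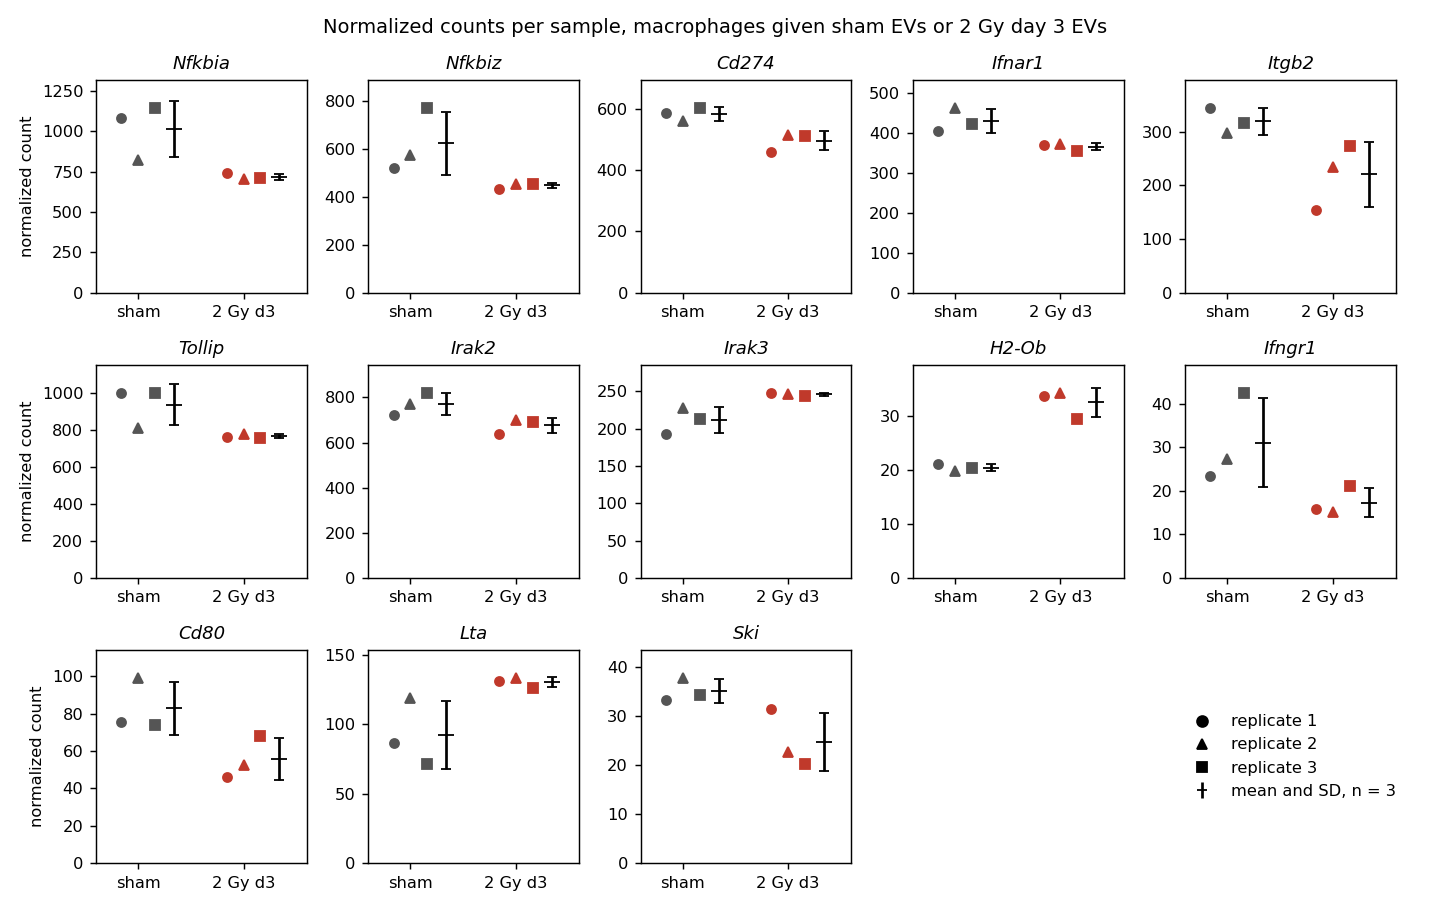
Normalized counts of 13 genes (Irak3, those the study names for this comparison and those at unadjusted p under 0.05), for sham EVs (gray) and 2 Gy day 3 EVs (red), with marker shapes for replicates and bars for the mean and SD of 3 samples. All axes start at 0, and no gene shows overlap between its groups at this scaling. The genes were picked from results of these same data, and over all genes tested 12.1% had groups without overlap.

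Among the 26 tested receptor, JAK and STAT genes, 3 were separated downward and 2 upward, close to the shares over all genes (7.45% and 4.61%). The list median was −0.10, and it was −0.02 under TMM scaling, −0.17 under total counts and −0.18 without sham replicate 2, where 8 of the list and 64 of all 282 genes were separated downward. Ifngr1, the ligand-binding chain of the interferon γ receptor, was counted at 23.3, 27.4 and 42.5 with sham EVs and at 15.7, 15.05 and 21.1 after 2 Gy day 3 EVs. The groups did not overlap, but the counts were close to the minimum of 20 and sham replicate 3 stood above the rest. Its log2 fold change was −0.85 ± 0.30 (SE, edgeR unadjusted p = 0.014, adjusted p = 0.997). Ifnar1, a chain of the interferon α/β receptor, had 405, 464 and 424 against 371, 372 and 355. The difference was −0.23 ± 0.15 on the log2 scale (SE, edgeR unadjusted p = 0.151), and the groups overlapped under TMM scaling. The partner chains Ifngr2 and Ifnar2 had estimates of −0.15 ± 0.21 and −0.14 ± 0.17 and overlapping groups. Jak3, a kinase of cytokine receptors with the common γ chain, was the third lower gene, at 38.8, 38.7 and 37.9 against 21.4, 37.6 and 24.8. Il2rg, that common γ chain, was separated upward at 385, 440.1 and 484 against 501, 488 and 491, as was Tyk2, a kinase of the interferon α/β receptor, at 44.4, 50.1 and 52.7 against 53.95, 58.5 and 71.6. The log2 fold changes were 0.18 ± 0.14 and 0.32 ± 0.23, with edgeR unadjusted p-values of 0.225 and 0.188.

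Of 13 interferon-stimulated genes tested, 2 were separated upward and 1 downward (4.61% and 7.45% over all genes). Below 0 were 2 estimates, or 5 under total counts, 5 without sham replicate 3 or 2 Gy day 3 replicate 2 and 6 without 2 Gy day 3 replicate 3. Without 2 Gy day 3 replicate 1, 6 of the list and 32 of all 282 genes were separated upward. The median log2 fold change was 0.09, staying above 0 under every scaling and without any 1 of the 6 samples, at 0.01 to 0.20. Cxcl10, a chemokine induced by interferon and NF-κB, was counted at 1696, 2367 and 1639 with sham EVs and 2445, 2476 and 2577 with 2 Gy day 3 EVs. Sham replicate 2 came close to the treated samples, and the log2 fold change was 0.40 ± 0.39 (SE, edgeR unadjusted p = 0.331). Ifi35, an interferon-induced regulator of innate signaling, stood at 883, 1144 and 1184 against 1379, 1263 and 1324, a log2 fold change of 0.30 ± 0.18. Its estimate ran from 0.18 to 0.38 when single samples were left out, and its groups overlapped under total counts. Tap1, which pumps peptides for MHC class I, was the 1 gene of this list separated downward, at 746, 683 and 682 against 504, 647 and 657. The most counted members Bst2 and Cxcl11 had overlapping groups and estimates of 0.09 ± 0.17 and 0.25 ± 0.27. Bst2 was separated upward under median-of-ratios scaling, and Cxcl11 ran from 0.07 to 0.58 when single samples were left out. For Ifnb1, the cytokine upstream of them, raw counts in the 6 samples were 10 to 40 and the estimate was 0.08 ± 0.71.

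Chemokines had the highest list median, 0.25 over 11 tested genes, with 3 separated upward and 0 downward, against 4.61% and 7.45% of all genes, and 0 at unadjusted p under 0.05 in edgeR. Ccl3 reached that p under TMM, median-of-ratios and total count scaling, and Ccl2, Ccl3 and Cxcl10 did with only the 6 samples compared. The median ran from 0.17 to 0.31 across scalings and from 0.13 to 0.39 when single samples were left out, and it was the highest of the 12 lists in each case. Without sham replicate 2 or 2 Gy day 3 replicate 1, 6 were separated upward, where 37 and 32 of all 282 genes were. Cxcl10 and Cxcl11 belong to this list and to the interferon-stimulated genes. Ccl3 (MIP-1α), a chemoattractant for monocytes and the gene with most counts on the panel in 5 of the 6 samples, was counted at 124136, 164489 and 140896 with sham EVs and 166645, 176471 and 176683 after 2 Gy day 3 EVs. The lowest treated sample exceeded the highest sham sample narrowly, and the log2 fold change was 0.28 ± 0.14 (SE, edgeR unadjusted p = 0.071). Ccl12, a monocyte chemokine, had 41.03, 43.4 and 41.6 against 46.1, 57.7 and 53.2. Ccl5, Ccl4 and Ccl9, also highly counted, had log2 fold changes of −0.03 ± 0.13, −0.0022 ± 0.22 and 0.11 ± 0.27, with groups that overlapped and a sign of Ccl5 that turned under TMM scaling. Ccl2, which recruits monocytes, had the highest estimate, 0.44 ± 0.50, from 12187, 15023 and 11011 against 13663, 18821 and 19433, and its groups overlapped.

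Among 21 cytokines the median was −0.01, or 0.08 under TMM scaling, and 1 gene was separated, upward (4.61% of all genes were). Lta, lymphotoxin α of the TNF family, was counted at 86.5, 119 and 71.2 with sham EVs and 132, 134 and 127 with 2 Gy day 3 EVs. Treated samples were tightly grouped above all sham samples, and the log2 fold change was 0.50 ± 0.22 (SE, edgeR unadjusted p = 0.042, adjusted p = 0.997). Tnf, its relative, had 1911, 3199 and 2376 against 1962, 2576 and 2559.8 and did not separate. Il6 stood at 2692, 2163 and 4146 against 4066, 2759 and 2602, with sham replicate 3 and treated replicate 1 highest. Il1b had 4645, 6311 and 3734 against 3097, 4371 and 4599, a log2 fold change of −0.28 ± 0.71. The 95% intervals of these 3 LPS-induced cytokines spanned 0. Csf2 (GM-CSF) had the highest estimate of all genes, 0.83 ± 0.50, from 52.1, 30.2 and 94.3 against 187, 71.1 and 62.4. Treated replicate 1 was far above the rest, and the other treated samples lay within the sham range. The anti-inflammatory Il10 and Tgfb1 had −0.06 ± 0.37 and 0.09 ± 0.16.

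Costimulatory and checkpoint ligands had the lowest list median, −0.25 over 8 genes, with 7 estimates below 0 and 2 genes separated downward. Over all 282 genes, 165 estimates were below 0 and 7.45% were separated downward. Without 2 Gy day 3 replicate 1 the median was −0.04, without sham replicate 2 it was −0.09, in neither case the lowest, without 2 Gy day 3 replicate 3 it was −0.38, and under TMM scaling it was −0.17, with 5 estimates below 0. Cd80, which engages CD28 and CTLA-4 on T cells, was counted at 75.4, 99.2 and 73.98 with sham EVs and 46.1, 52.7 and 67.9 after 2 Gy day 3 EVs. The highest treated sample was close below the lowest sham sample, and the log2 fold change was −0.57 ± 0.23 (SE, edgeR unadjusted p = 0.026, adjusted p = 0.997). Its groups overlapped under TMM scaling. Cd274, which encodes the checkpoint ligand PD-L1, had 584, 559 and 604 against 459.7, 514 and 512. Its difference was smaller, −0.23 ± 0.14 (SE, edgeR unadjusted p = 0.113), and held under every scaling as a separation of groups. Cd86, the other CD28 ligand, stood at 325, 219 and 344 against 259, 293 and 296 and overlapped.

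**Figure D4:**
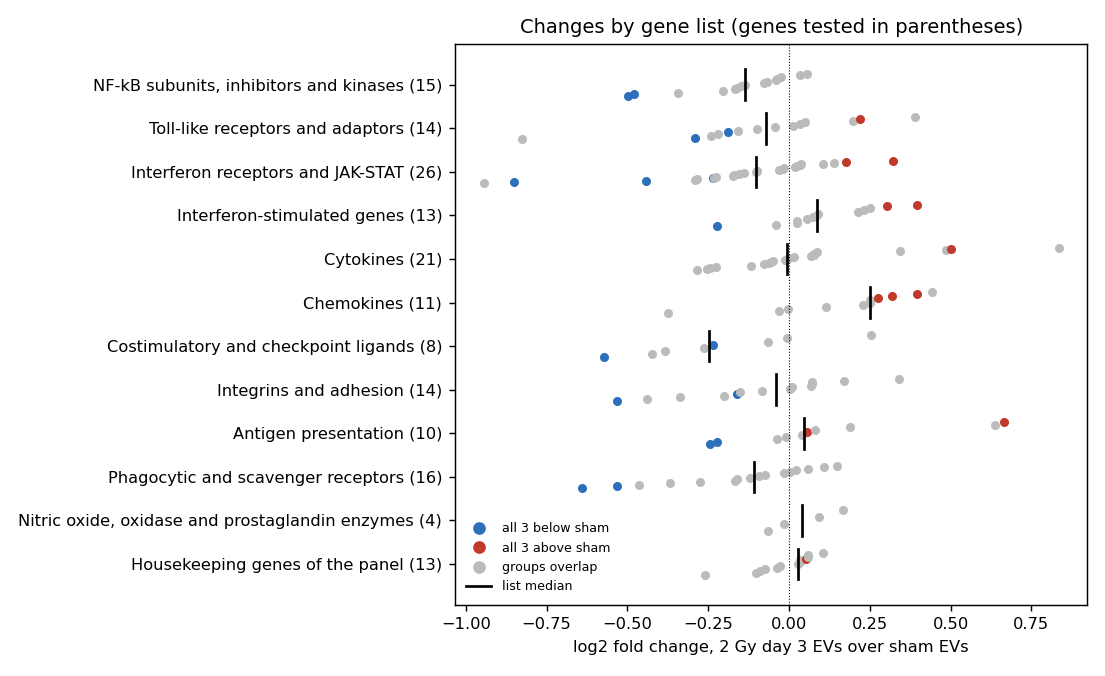
Log2 fold change of each tested gene (2 Gy day 3 EVs over sham EVs, x axis) by gene list, with the number tested in parentheses, list medians as black bars, and colors for genes whose groups did not overlap. Medians range from −0.25 for costimulatory and checkpoint ligands to 0.25 for chemokines.

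Of 14 integrin and adhesion genes 2 were separated downward, and of 16 phagocytic and scavenger receptors 2 were, with Itgb2 in both lists. Over all genes this share was 7.45%. Without sham replicate 2, 7 of the phagocytic and scavenger receptors and 64 of all 282 genes were separated downward, and without sham replicate 3, 4 of the integrin and adhesion genes and 30 of all were. Itgb2, the β2 integrin chain of LFA-1 and complement receptor 3, was counted at 345, 297 and 315 with sham EVs and 154, 233 and 273 with 2 Gy day 3 EVs. Treated replicate 1 was lowest, and the log2 fold change was −0.53 ± 0.26 (SE, edgeR unadjusted p = 0.058, adjusted p = 0.997). When single samples were left out, the estimate for Itgb2 ran from −0.72 to −0.33. Its partner chains Itgal and Itgam had estimates of −0.15 ± 0.48 and 0.0046 ± 0.17. Fcgr2b, the inhibitory Fcγ receptor, had 1086, 532 and 657 against 505, 462 and 491, where sham replicate 1 alone was high. The estimate of −0.64 ± 0.38 had an edgeR unadjusted p of 0.111, and was −0.29 without sham replicate 1. Cd44, a hyaluronan receptor, was the remaining gene, at 886, 904 and 869 against 728, 785 and 867, and overlapped under TMM scaling. The activating receptors Fcgr1 and Fcgr3 had −0.37 ± 0.41 and −0.17 ± 0.22, and the scavenger receptors Cd36 and Msr1 −0.46 ± 0.31 and −0.16 ± 0.31, none of them separated. Among the phagocytic and scavenger receptors 11 estimates were below 0, with a median of −0.11, and under TMM scaling 9 were, with a median of −0.02. Among the integrin and adhesion genes 7 were, with a median of −0.04 that was 0.04 under TMM scaling, 0.07 without sham replicate 2 and 0.05 without 2 Gy day 3 replicate 1.

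Antigen presentation genes had no common direction, with 2 of 10 separated downward and 2 upward, against 7.45% and 4.61% of all genes, and a median of 0.05 that was below 0 under total counts. H2-Ob, a chain of the MHC class II peptide-loading inhibitor H2-O, had the smallest p of all genes. It was counted at 21.1, 19.8 and 20.3 with sham EVs and 33.7, 34.3 and 29.4 with 2 Gy day 3 EVs, so all treated samples were above all sham samples. These values sit near the minimum of 20 raw counts. The log2 fold change was 0.67 ± 0.19 (SE, 95% interval 0.27 to 1.07, edgeR unadjusted p = 0.0034, adjusted p = 0.519). This error and interval are narrower than the p-value implies, because edgeR raised that p-value to a bound set by counting error. H2-Eb1, a class II chain, had 7.76, 26.4 and 15.7 against 25.9, 28.4 and 24.8 and overlapped through sham replicate 2. Cd74, the class II invariant chain, was separated upward by a log2 difference of 0.05, and not under total counts. Besides Tap1, H60a, a ligand of the NK receptor NKG2D, was separated downward at 155, 152 and 166 against 149, 122 and 128. B2m, shared by all class I molecules, had 32046, 29854 and 33179.6 against 31563, 31507 and 31378.

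Of 4 genes for enzymes of nitric oxide, superoxide and prostaglandins, 0 were separated, or 1 under TMM scaling, where 12.1% of all genes were at the scaling used. Nos2, the inducible nitric oxide synthase, was counted at 664, 649.8 and 634 with sham EVs and 593, 767 and 718 with 2 Gy day 3 EVs, with treated samples on both sides of the sham range. Ptgs2, cyclooxygenase-2, had a log2 fold change of 0.17 ± 0.38, and Cybb, the oxidase subunit gp91phox, −0.01 ± 0.17, with a sign that turned under TMM scaling. The 13 housekeeping genes tested, of the 14 that set the scale, had a median of 0.03, with 1 separated gene, Rpl19, at a log2 difference of 0.05.

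Of the separated genes, 9 belonged to none of the lists, 7 of them lower and 2 higher. Ski, a repressor of TGF-β signaling, was counted at 33.3, 37.8 and 34.2 with sham EVs and 31.5, 22.6 and 20.2 with 2 Gy day 3 EVs. Treated replicate 1 nearly reached the sham range, and the log2 fold change was −0.52 ± 0.23 (SE, edgeR unadjusted p = 0.044, adjusted p = 0.997), with overlap under TMM scaling. The cytokine receptor chains Il13ra1, of the IL-4 and IL-13 receptor, and Il17ra, of the IL-17 receptor, had −0.35 ± 0.21 and −0.36 ± 0.22. Il13ra1 stood at 283, 211 and 239 against 171, 197 and 204, and Il17ra at 84.3, 101 and 96.2 against 67.4, 77.7 and 74.3. Trp53, the DNA-damage transcription factor p53, was separated upward at 114, 126 and 104 against 146, 135 and 146, a log2 fold change of 0.31 ± 0.23 (SE, edgeR unadjusted p = 0.203). Ccrl2, a chemerin-binding receptor that LPS induces, had 273, 323 and 332 against 412, 366 and 351. The remaining lower genes were Atg16l1 (−0.38), Hif1a (−0.26), Tal1 (−0.65) and the T cell kinase gene Lck (−0.17). The latter had counts of 41.6 to 52.1 over the 6 samples, while Cd8a, another T cell marker above the filter, had an estimate of 0.39 ± 0.20 with overlapping groups. Under TMM, median-of-ratios and total count scaling Cd8a was separated upward. It reached unadjusted p under 0.05 in edgeR under TMM and median-of-ratios scaling, and in DESeq2. Whether RNA of other cells had a part in the values of Lck and Cd8a was not tested.

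The same genes were set beside EVs collected 7 days after 2 Gy. Both days were compared with the same 3 sham samples, so their values are not independent. Nfkbia had normalized counts of 902, 819.8 and 912 with day 7 EVs, a log2 difference from sham of −0.21 ± 0.14 (SE) against −0.50 ± 0.14 at day 3. Cd80 had 67.2, 85.7 and 96.9 and 0.0026 ± 0.22 at day 7 against −0.57 ± 0.23 at day 3, and Ifngr1 had −0.03 ± 0.28 against −0.85 ± 0.30. In each of these 3 genes day 7 samples reached into the sham range. Ski had −0.50 ± 0.23 and −0.52 ± 0.23, and H2-Ob 0.44 and 0.67, at day 7 and day 3.

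A direct comparison of day 7 with day 3, whose fold changes use no sham sample, gave 0 of 282 genes (0%) past an adjusted p of 0.05 in edgeR, with a smallest adjusted p of 0.823. At unadjusted p under 0.05, 4 genes (1.42%) were higher at day 7 and 1 (0.355%) was lower. Ifngr1 was higher by 0.81 ± 0.30 on the log2 scale (SE, edgeR unadjusted p = 0.017) and Cd80 by 0.58 ± 0.23 (edgeR unadjusted p = 0.025), beside Tubb5 and Traf2. The lower gene was Hfe, a regulator of iron uptake, with 22.5, 20.1 and 22.9 at day 3 and 10.9, 11.99 and 13.7 at day 7, a log2 difference of −0.84 (edgeR unadjusted p = 0.0029). No standard error is given for it, because edgeR raised its p-value to a bound set by counting error. DESeq2 gave 0 adjusted and 4 unadjusted genes, and limma called 1 gene, Hfe, at an adjusted p of 0.0258. The filter used sham and day 3 samples, so Hfe entered this comparison through a group where it was higher, and with a mean of 20 over all 15 samples as the filter it was not tested and the smallest adjusted p in edgeR was 0.998 (Ifngr1). All day 7 counts of Hfe were under 20 before and after scaling. For Nfkbia the difference between days was 0.29 ± 0.14, with an edgeR unadjusted p of 0.065, so a difference between days was not shown.

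**Figure D5:**
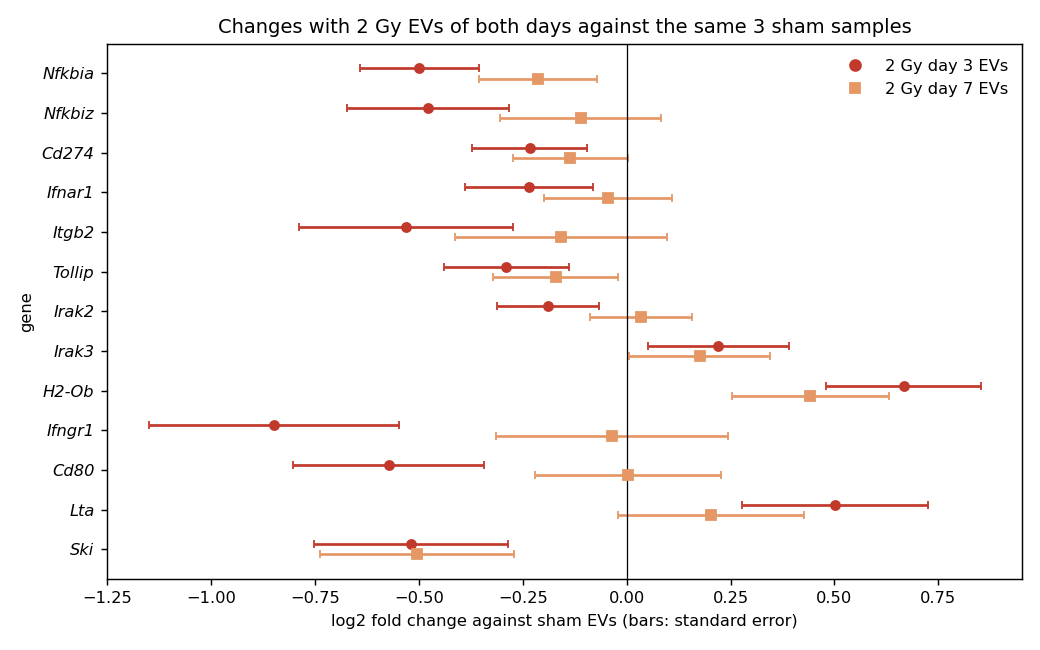
Log2 fold change against sham EVs (x axis) for EVs of day 3 (circles) and day 7 (squares) after 2 Gy, with standard errors from edgeR, for the 13 genes plotted by sample. Both days share the 3 sham samples, the bars of H2-Ob are narrower than its p-values imply, and the estimates of Ski lie at −0.52 and −0.50, those of Ifngr1 at −0.85 and −0.03.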

How the data were processed

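RNA was measured on the nanoString nCounter Mouse Immunology Panel. The authors deposited raw counts of 561 genes per sample, before the nSolver normalization that the study describes, and control probes and nSolver settings were not used here, so no background was subtracted. The lowest count was 1. Samples were grouped by title. The geometric mean of 14 housekeeping genes set the scale of each sample. A gene was tested if its raw counts averaged 20 or more over the 6 samples. Quasi-likelihood models (edgeR 4.0.16 under R 4.3.3) covered all 15 samples in 5 groups, with 10 residual degrees of freedom and a prior count of 0.125. Benjamini-Hochberg adjustment ran over every tested gene, at a threshold of 0.05. The standard error is the absolute log2 fold change over the square root of F. For 10 of the 282 genes (H2-Ob, Ikbkb and Tlr4 among them), and 14 between days, edgeR raised the p-value to a bound set by counting error, and their standard errors and intervals are narrower than that p-value implies. The procedure was tested on simulated data. Alternatives were 4 other scalings, other filters, other sample sets, a replicate block, DESeq2 1.42.0, limma 3.58.1, an unequal-variance test and single samples left out. Genes named are those the study names for this comparison and Irak3, those at unadjusted p under 0.05, the 10 largest separated changes at a mean of at least 100 counts, the 2 best-counted genes of each list, those at the filter's edge, Nos2 and Il6, with further members of the lists as examples. The genes, the 12 lists and the 6 marker lists were chosen with earlier results of these data known. Symbols are as deposited, of which 545 are current RefSeq symbols (GRCm38.p6), 14 are synonyms there and 2 had no entry. Intervals cover the spread between samples. Counting error adds most to genes near 20 counts. Some genes are not reported here.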

Additional observations from a re-analysis of the deposited data

How the results depend on the processing

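The count of genes at adjusted p under 0.05 was 0 under all 26 alternatives. The unadjusted count, 7 in the report, was 11 with TMM scaling, 15 with total counts, 18 with no filter, 3 with a mean of at least 100, 14 with only the 6 samples compared, 19 with only sham and both 2 Gy groups, and 12 with DESeq2 (4 lower). It ranged from 3 to 23 when single samples were left out. The unequal-variance test also gave 7 genes, of which 1 was among the 7 of the report. Genes whose groups did not overlap, 34 in the report, were 60 with no filter, where 561 genes were tested. They were 44 to 101 when 1 of the 6 samples compared was left out, which lowers the number of samples that must separate. Intervals within a 2-fold change numbered 144 instead of 239 with a mean of at least 100, where 167 genes were tested. Day 7 against day 3 gave 1 adjusted call in limma. The cause of the other shifts was not tested.

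The replicate numbers did not pair the samples. Deviations from group means, over genes, correlated at 0.16, 0.44 and −0.57 between 2 Gy day 3 and sham samples of the same number, and 2 Gy day 3 replicate 1 correlated best with sham replicate 3 (0.70). With the number as a replicate block the unadjusted count was 8 (7 lower) over all 15 samples and 13 over the 6 samples compared, and the adjusted count stayed 0.

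Of the values of named genes under the alternatives, 924 kept their sign and side of the threshold and 35 reversed, all of genes with log2 fold changes near 0 or wide errors. TMM scaling gave 0.0092 for Nfkb2, 0.053 for Ccl5, 0.079 for B2m, 0.058 for Cybb and 0.047 for Gapdh. Median-of-ratios scaling gave 0.039 for Ccl5, 0.063 for B2m, 0.051 for Cybb and 0.034 for Gapdh, and DESeq2 gave the same rounded values. Total counts gave −0.061 for Cd9, −0.014 for Cd74, −0.018 for Rpl19 and −0.000895 for Il6. Scaling to the 10 housekeeping genes that averaged 100 counts or more gave −0.00324 for Cd9. With counts under 20 set to 20, B2m was 0.0090 and Cybb 0.0015. When single samples were left out, values ranged from −0.14 to 0.034 for Nfkb2, −0.065 to 0.032 for Ccl5, −0.051 to 0.025 for B2m, −0.13 to 0.14 for Cybb, −0.16 to 0.37 for Il6, −0.68 to 0.025 for Cd40, −0.49 to 0.047 for Cd14 and −0.049 to 0.096 for Cd9. The median half-width of the 95% intervals was 0.48 log2 units at this number of samples.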

Other observations

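The panel genes below the filter, 279 of 561, include ligands and receptors that bear on the same pathways. Of the Toll-like receptor list these included Tlr3, Tlr8 and Tlr9. Of the antigen presentation list they were Ciita, H2-Aa, H2-Ab1, H2-Ea-ps, H2-DMb2, H2-Q10 and Cd1d1. Of the chemokine list 9 of 20 genes on the panel were below it, including Cxcl1, Cxcl9 and Cxcl12, and of the cytokine list 8 of 29, including Il12a, which encodes a chain of IL-12.

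At the edge of the filter, Btla (mean 20 raw counts) and Smad5 (20.7) were just inside. Their log2 fold changes were −0.10 and −0.25. When single samples were left out, values ran from −0.16 to −0.06 for Btla and from −0.46 to −0.02 for Smad5. With counts under 20 set to 20, Smad5 was at −0.046. Il21 and Tslp, each with a mean of 19.8, were just outside. Il21 had raw counts of 14, 24 and 30 in sham samples and 17, 16 and 18 in 2 Gy day 3 samples, and Tslp had 15, 31 and 16 against 9, 25 and 23.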
